A study of Rattus norvegicus with 4 samples.

Results

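Serpins and Kazal-type inhibitors are the subject here: every row of the authors' gene table whose symbol begins with Serpin or Spink, 30 of 21473 rows (probes), which hold 26 of the table's 14390 named genes. The rule used names and no measured value. The cells came from bone marrow of 6-week-old Wistar rats, and total RNA was taken after 15 days in culture. In the high density group (2 arrays) the cells had been cultured at high density, and in the regular density group (2 arrays) at regular density, which served as control. The submitters call the source endothelial progenitor cells and speak of 2 independent experiments, and nothing states that arrays of the same replicate number came from 1 experiment. Both groups were Wistar bone marrow of the same age, with no genetic change or added agent named. No source says that the replicates came from separate animals, so p-values measure the spread between these samples, with variance partly borrowed from other probes. With 2 arrays a group, the precision of every value is limited.

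Most serpins are suicide inhibitors. An exposed loop offers a bait bond to a serine protease, the protease cuts it, and the serpin snaps into a new fold that traps the enzyme as a covalent complex. A few serpins have lost this activity and work as chaperones or signals. Clade names (A, B, E and so on) follow sequence descent: clade A proteins are mostly secreted plasma proteins, clade B proteins mostly stay inside the cell, and clade E proteins are secreted and act on thrombin and on proteases of fibrin breakdown. Kazal-type inhibitors, to which the Spink genes belong, are small secreted proteins held by disulphide bonds that block a serine protease by lying in its active site like a substrate that is released only slowly.

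Clade B genes lie in blocks of neighbours on rat chromosomes 13 and 17. Upstream sequences are shown for the neighbours of each block that moved in the same direction between the densities, chosen after their values were seen: Serpinb9 and Serpinb6b, which were higher at high density, and Serpinb7 and Serpinb2, which were lower. Each is the 250 bases before the gene's start in RefSeq (build GRCr8), 5′ to 3′ on the gene's strand, and 20 of the 26 genes were in that table. Capitals mark matches to 5 short motifs, searched on both strands. The TATA box was searched as TATAAA. The AP-1 site was searched as TGANTCA, where N is any base. The GC box was searched as GGGCGG. The CCAAT box was searched by its own letters, and the serum response element known as the CArG box was searched as well. The letters of the TATA box and of the CCAAT box can also lie inside a CArG box.
Serpinb9, minus strand, chr17:31640817-31641066: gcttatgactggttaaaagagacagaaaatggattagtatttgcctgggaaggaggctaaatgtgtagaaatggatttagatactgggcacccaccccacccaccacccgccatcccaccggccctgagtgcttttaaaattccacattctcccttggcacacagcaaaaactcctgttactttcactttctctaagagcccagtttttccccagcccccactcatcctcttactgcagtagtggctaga
Serpinb6b, minus strand, chr17:31683935-31684184: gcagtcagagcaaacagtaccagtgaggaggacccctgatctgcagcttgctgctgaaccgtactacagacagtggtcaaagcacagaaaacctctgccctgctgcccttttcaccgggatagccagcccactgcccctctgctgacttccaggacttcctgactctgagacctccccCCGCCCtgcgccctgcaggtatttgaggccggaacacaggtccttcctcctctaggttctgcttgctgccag
Serpinb7, plus strand, chr13:23910056-23910305: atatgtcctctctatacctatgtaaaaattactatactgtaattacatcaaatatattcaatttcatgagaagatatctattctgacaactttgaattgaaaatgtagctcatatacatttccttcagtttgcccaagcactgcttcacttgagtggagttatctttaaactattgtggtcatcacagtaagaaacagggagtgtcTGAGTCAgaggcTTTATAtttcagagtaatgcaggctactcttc
Serpinb2, plus strand, chr13:24055771-24056020: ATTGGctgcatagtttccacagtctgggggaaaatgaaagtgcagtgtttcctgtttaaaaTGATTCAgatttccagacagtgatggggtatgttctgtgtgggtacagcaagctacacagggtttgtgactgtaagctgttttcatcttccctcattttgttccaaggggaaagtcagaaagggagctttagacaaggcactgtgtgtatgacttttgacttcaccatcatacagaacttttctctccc
Serpinb9 had no match in this window. Serpinb6b had a GC box read on the opposite strand, 72 to 67 bases before the start. Serpinb7 had a TATA box read on the opposite strand, 32 to 27 bases before the start, and an AP-1 match 44 to 38 bases before it. In Serpinb2 an AP-1 match lay 189 to 183 bases before the start. A CCAAT box, read on the opposite strand, lay 250 to 246 bases before it. Among 33469 upstream windows of the same length, 12.9% held the TATA box letters, 6.34% the AP-1 site, 34.0% the CCAAT box, 30.5% the GC box and 1.497% the CArG box. A match describes letters in a window and not a bound site.

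The arrays were 1-colour Agilent arrays with 44254 spots for 30367 probes. Background on an array is the 99th percentile of its 153 negative control spots, which was 34.5 and 28.2 units of raw intensity at high density and 29.5 and 36.9 at regular density. Array brightness (75th percentile of probe intensity) was 386 and 462 at high density and 355 and 435 at regular density, so raw intensities run higher on the replicate 2 arrays and changes are given after scaling to that percentile. The label endothelial progenitor was checked against marker genes. Of 14 endothelial genes, 6 were above background on all 4 arrays (Cdh5, Flt1, Egfl7, Robo4, Tie1 and Vwf) and 4 on none (Cd34, Tek, Nos3 and Emcn). Pecam1 and Kdr were above it on 1 array and Prom1 on the 2 high density arrays. By group, 8 of the 14 were above it on both high density arrays and 6 on both regular density arrays. In the test described below, 12.8% of all tested probes were higher at high density and 17.7% lower. Of 6 tested endothelial genes, 2 were higher and 0 lower. The summed intensity of the endothelial genes after scaling was 1464 and 1169 at high density and 966 and 835 at regular density. Smooth muscle genes were higher in 8 of 9 tested (12.8% of all tested probes), with a sum of 168637 and 162312 at high density and 21099 and 20022 at regular density. Monocyte and macrophage genes were higher in 6 and lower in 1 of 12 tested (12.8% and 17.7% of all tested probes), with a sum of 108935 and 103008 against 100723 and 106060. Fibroblast genes were all above background on all arrays, and 4 were higher and 2 lower of 10 tested. Their sum was 265499 and 248601 against 257931 and 224125. The endothelial label therefore rests on part of its defining genes only, and the cells are called by their culture density below. In cultures of mixed cells, more cells of a type and more RNA per cell cannot be told apart, and the part of these cell types in the results below was not tested except where a value is given.

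Above background on all 4 arrays were 16 of the 30 probes, representing 14 genes, or 53.3% of the family against 71.0% of all probes in the authors' table. A further 3 probes passed on 3 arrays, 3 on 2 arrays and 4 on 1 array, and 4 passed on none (12.3% of the table's probes did so). Array by array, 20 and 26 members passed at high density and 18 and 19 at regular density. Of all 30367 probes, including those outside the authors' table, 54.8% and 61.2% passed at high density and 53.9% and 55.7% at regular density. By clade, 3 of 5 probes of clade A, 6 of 13 of clade B and all 7 probes of clades E, F, G, H and I were above background on every array, while none of the 5 Spink probes was. Among the members, raw intensity reached 44099 in clade H (Serpinh1), 20052 in clade F (Serpinf1), 4297 in clade G (Serping1) and 2721 in clade B (Serpinb1a). It stayed at or below 129 in clade I, 104 in clade A and 216 among Spink members. Brighter clade A and Spink probes that carry other symbols are described further below. Such levels depend on each probe's own binding and give no order between genes.

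**Figure D1:**
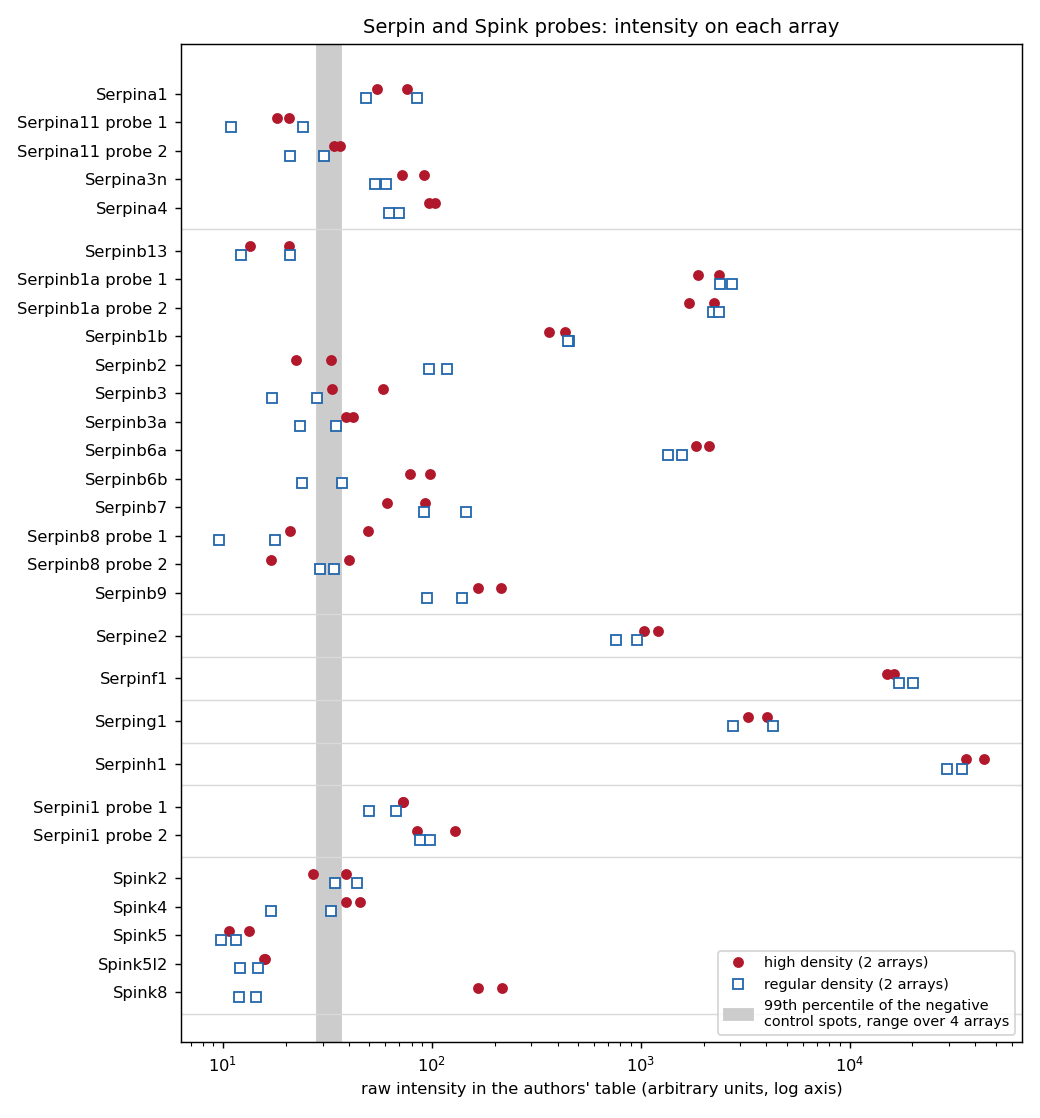
Raw intensity of the member probes described in the text (log axis, arbitrary units) on the 2 high density and 2 regular density arrays, grouped by clade, with the background level of the arrays marked. Spink8 has high density points well above its regular density points, Serpinb2 has the opposite order, and most Spink and dim clade B probes sit around the background.

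A probe was tested where its mean log2 intensity over the 4 arrays exceeded the median of all probes, which kept 19 member probes of 17 genes and left 11 too dim. With limma and Benjamini-Hochberg adjustment over all 15183 tested probes at 0.05, 5 members were higher at high density (26.3%, against 12.8% of all tested probes) and 4 were lower (21.1%, against 17.7%), and 10 were not called. In either direction 30.5% of all tested probes were called. The scaled values of both groups did not overlap in 16 of the 19 (84.2%), against 69.2% of all tested probes. The median change was 0.22 over the tested members and -0.08 over all tested probes (log2, high minus regular density). These shares cannot be read as a property of the family, because the filter itself let in Spink8 and Serpinb6b through their high density arrays and Serpinb2 through its regular density arrays. Just inside the filter lay Spink8 (mean log2 intensity 5.64) and Serpinb6b (5.70), and just outside it Spink2 (5.15) and Serpinb3a (5.08). Without any filter on dim probes all 30 members could be tested, and 5 were higher (7.94% of all 30367 probes) and 3 lower (9.46%). The 30367 probes include 8894 outside the authors' table, where the name rule takes no member, so counts and shares rest on unlike sets of probes. A change of 2-fold or more was found in 3 members that were higher (4.58% of all tested probes) and 1 that was lower (1.69%).

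**Figure D2:**
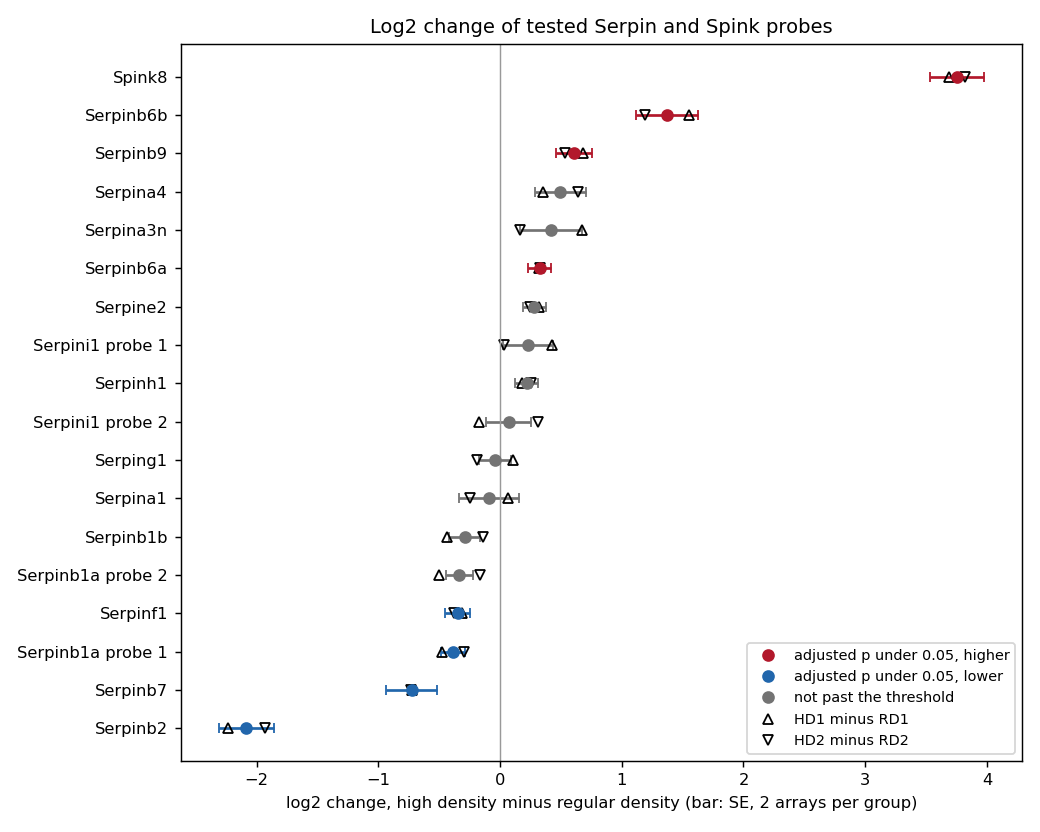
Log2 change (high minus regular density, with its standard error) of the tested member probes described in the text, coloured by the call at an adjusted p of 0.05; triangles give the difference between the arrays of replicate number 1 and of replicate number 2 (HD high density, RD regular density). Spink8 and Serpinb6b (1.37) stand to the right and Serpinb2 (-2.08) to the left, and the other called probes shown lie between -0.73 and 0.61. The point of Spink8 is the fitted value, and as its regular density arrays lay under background it has only a lower bound.

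In clade E, Serpine2 (protease nexin 1, an inhibitor of thrombin, urokinase and plasmin), read 1038 and 1210 at high density, against 764 and 959 at regular density, and its change of 0.28 ± 0.09 was not called (adjusted p = 0.0612).

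The proteases of plasminogen activation, on which several serpins act, and their receptors moved in both directions. Of 17 genes of plasminogen activation, 11 were tested, of which 4 were higher and 4 lower at high density (background 12.8% and 17.7%), with a median change of 0.03. All 3 protease genes tested among plasminogen and its activators were higher. Plg (plasminogen) read 1276 and 1397 at high density, against 482 and 488 at regular density (log2 change 1.35 ± 0.12 SE, adjusted p = 7.60e-04). Plat (tissue plasminogen activator) read 3716 and 4320 against 1797 and 2258 (0.89 ± 0.09, adjusted p = 0.00140). Plau (urokinase) changed by 0.64, and its receptor Plaur by 0.42. Lower at high density were the protease scavenger A2m (alpha-2-macroglobulin, -1.33 ± 0.09, adjusted p = 3.07e-04) and Mrc2, which binds the urokinase receptor and takes up collagen (-1.60 ± 0.13, adjusted p = 5.55e-04). Mrc2 read 85.1 and 115 at high density, against 263 and 296 at regular density. Lrp1, the endocytic receptor that clears protease and inhibitor complexes, changed by -0.86, and Anxa2, a surface anchor of plasminogen, by -0.50. In the authors' normalized values the difference was -0.81 for Lrp1 and -0.19 for Anxa2, so the size of the Anxa2 change depends on the normalization. Vtn, the adhesive matrix protein vitronectin, was under background on all arrays. Plg is best known from liver. Of 9 hepatocyte genes, 6 were under background on all arrays, Alb and Ttr among them, and 2 were above it on all arrays. Of the 2 tested, 1 was higher and 0 lower (background 12.8% and 17.7%). Hnf4a, a liver transcription factor, read 733 and 710 at high density, against 86.1 and 73.9 at regular density.

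In the coagulation list, 9 of the 21 genes on the array were tested, 2 of them higher and 2 lower (background 12.8% and 17.7%), with a median change of 0.15. The thrombin receptor F2r (0.95 ± 0.11, adjusted p = 0.00192) and tissue factor, F3 (1.02 ± 0.12, adjusted p = 0.00213), were higher at high density. F3 read 5376 and 7709 there, against 2581 and 3373 at regular density. Thrombomodulin, Thbd, which turns thrombin towards protein C, was lower (-0.76 ± 0.10, adjusted p = 0.00381), as was F2rl2, a further member of the thrombin receptor family (-0.99 ± 0.19, adjusted p = 0.0120). Thrombin itself (F2) and protein C (Proc) were under background on all arrays.

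Clade B, the intracellular serpins, had 13 probes of 11 genes. Of 8 tested probes, 3 were higher and 3 lower (background 12.8% and 17.7%) and 2 were not called, and the changes ran from -2.08 to 1.37. Serpinb2 encodes plasminogen activator inhibitor 2, which inhibits urokinase outside the cell but stays largely in the cytosol. Its probe (Entrez gene 60325, chromosome 13, 13640735 to 13640794 in the authors' table, which names no assembly) read 22.4 and 32.9 at high density, against 96.9 and 118 at regular density. The high density arrays sat at the background, under it on replicate 1 and above it on replicate 2, and the regular density arrays were clearly above it. Scaled log2 intensity averaged 4.71 ± 0.21 at high density and 6.79 ± 0.005 at regular density (SD, n = 2 each). This is 4.24-fold lower at high density (log2 change -2.08 ± 0.23 SE, adjusted p = 0.00163). With scaled values under 32 set to 32, the change was -1.79.

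Serpinb6b is a rodent paralogue whose mouse product inhibits granzyme A. Its probe (Entrez gene 364705, chromosome 17, 37816952 to 37817011) read 78.9 and 98.1 at high density, against 23.9 and 37.4 at regular density. The groups did not overlap. At regular density replicate 1 was under background. Replicate 2 was barely above it, at 37.4 against 36.9, and the median of its spots was 36.9. The 2.59-fold difference passed the test (log2 change 1.37 ± 0.25 SE, adjusted p = 0.0104), but its size rests on this signal near background. With scaled values under 32 set to 32, the log2 change was 1.26. The probe was printed 10 times on each array, and its 10 spots varied widely at regular density, with coefficients of variation of 55.9% and 34.9% and single spots of 64.7 and 82.6, against 13.03% and 6.91% at high density. The lowest high density spots, 65.9 and 84.6, lay close to these, so single spots did not separate the groups fully, while the array means did.

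Serpinb9, whose product inhibits granzyme B and shields cytotoxic cells from their own granules, read 166 and 215 at high density, against 95.03 and 140 at regular density (Entrez gene 361241, chromosome 17, 37782600 to 37784834). The groups did not overlap, and the difference was 1.52-fold (log2 change 0.61 ± 0.15 SE, adjusted p = 0.0245). The call was lost without high density replicate 2 (change 0.55) or regular density replicate 1 (0.47). It was also lost by limma with the authors' normalized values (0.53, adjusted p = 0.0538) and with no scaling (0.71, adjusted p = 0.0783). Serpinb6a, whose human counterpart inhibits cathepsin G, read 1848 and 2115 at high density, against 1348 and 1574 at regular density (Entrez gene 291085, chromosome 17, 37334213 to 37334272). This was a 1.25-fold difference (0.33 ± 0.09, adjusted p = 0.0394) that lost its call when any of the 4 arrays was left out (changes 0.30 to 0.35, adjusted p between 0.0511 and 0.267). With median scaling it was 0.20 and not called (adjusted p = 0.258).

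Serpinb7, known as megsin from kidney mesangial cells, read 60.7 and 93.2 at high density, against 91.9 and 146 at regular density (Entrez gene 117092, chromosome 13, 13506298 to 13506357). Its raw intensities overlapped between the groups, and after scaling they did not. It was 1.65-fold lower at high density (log2 change -0.73 ± 0.21 SE, adjusted p = 0.0427), and not called without high density replicate 1 (-0.55, adjusted p = 0.143) or regular density replicate 2 (-0.54, adjusted p = 0.183). Serpinb1a, an inhibitor of neutrophil elastase, proteinase 3 and cathepsin G, had a pair of overlapping probes (Entrez gene 291091, chromosome 17). The probe at 37958921 to 37958980 read 1880 and 2362 at high density, against 2399 and 2721 at regular density, and was called lower (-0.38 ± 0.10, adjusted p = 0.0284). The probe at 37958944 to 37959003 read 1698 and 2239 against 2213 and 2359 and was not called (-0.33 ± 0.11, adjusted p = 0.0672). The call of the first was lost without high density replicate 1 (-0.35, adjusted p = 0.201), high density replicate 2 (-0.42, adjusted p = 0.0919) or regular density replicate 1 (-0.33, adjusted p = 0.0628), and with quantile normalization (-0.31, adjusted p = 0.0540). Its close paralogue Serpinb1b read 366 and 432 against 455 and 448 and was not called (-0.29 ± 0.13, adjusted p = 0.137). Serpinb1a and Serpinb1b, and Serpinb6a and Serpinb6b, are close copies, and whether their probes bind each other's transcripts was not tested.

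Along chromosome 17 the authors' positions give the order Serpinb6a (higher), Serpinb1b (not called), Serpinb9 (higher), Serpinb6b (higher) and Serpinb1a (lower). Along chromosome 13 the order is Serpinb13, Serpinb3a and Serpinb3 (too dim to test), Serpinb7 (lower), Serpinb2 (lower) and Serpinb8 (too dim). RefSeq gives the same order in both blocks.

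**Figure D3:**
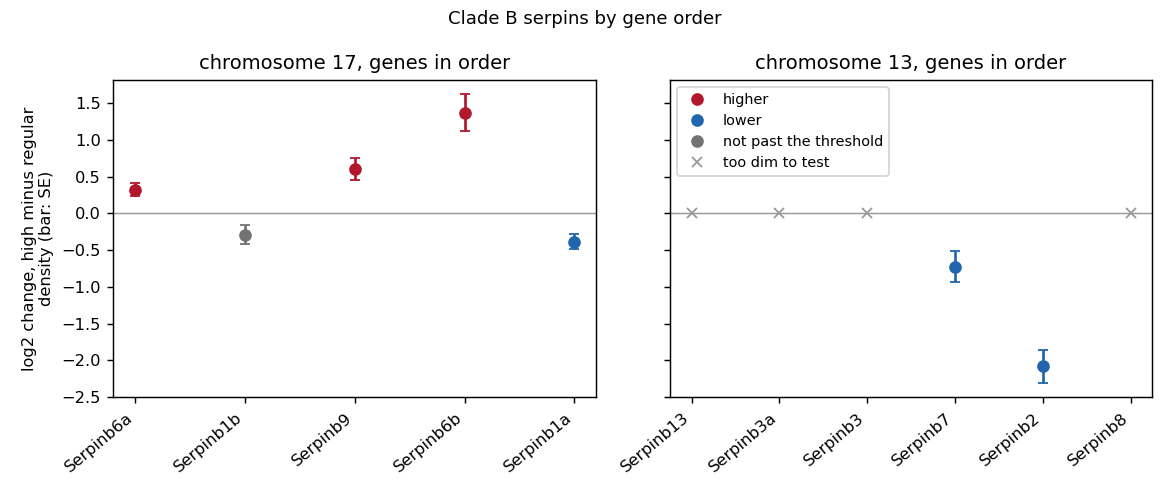
Log2 change (high minus regular density, with its standard error) of clade B genes (for Serpinb1a the called probe), placed in the order of the genes along chromosomes 17 and 13 and not to distance; crosses at 0 are probes too dim to test and carry no value. The called genes of chromosome 13 are both lower, and chromosome 17 holds 3 higher genes and 1 lower gene.

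Granule proteases are targets of several clade B inhibitors. Of 19 granule and mast cell serine protease genes on the array, 3 were tested and 2 were higher (background 12.8%), and 13 were under background on all arrays, with the neutrophil proteases Elane, Prtn3 and Ctsg, the target set of the Serpinb1a product, among them. Gzmb, the granzyme B target of Serpinb9, read 1088 and 1287 at high density, against 136 and 164 at regular density (log2 change 2.88 ± 0.10 SE, adjusted p = 4.32e-05). Gzmc read 597 and 807 against 135 and 196 (1.99 ± 0.13, adjusted p = 2.57e-04). Gzma was under background on all arrays. Among lymphocyte markers, 4 of 11 were tested and 2 were higher (background 12.8%), Gzmb itself and Cd8a. The sum over the 11 markers was 1986 and 1861 at high density and 646 and 542 at regular density. Gzmb is counted in it and makes up much of the high density sum. Cd3e, Cd3g, Cd2, Cd79b, Nkg7 and Klrd1 were at background on every array, as were all 9 mast cell and basophil markers.

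Among the Spink members, taken by symbol, Spink8 alone passed the filter. A Spink7 probe listed under another symbol also passed it and was not called (log2 change -0.16, adjusted p = 0.579 by limma). Spink8 encodes a Kazal-type serine peptidase inhibitor (Entrez gene 301016, chromosome 8, 114202065 to 114202124). Its probe read 167 and 216 at high density, against 11.9 and 14.4 at regular density. Both regular density arrays lay under background and both high density arrays well above it. The authors' normalized log2 values were 7.42 and 7.55 at high density, against 3.77 and 3.87 at regular density. Because regular density gave only a bound, the difference is at least 5.35-fold, counted from the background level of those arrays in place of their own signal. The adjusted p of 2.06e-04 by limma belongs to the fit on the measured values, under background at regular density, and does not test this bound. Spink8 also passed the filter through its high density arrays. The lowest of its 10 spots at high density was 134, and the highest spot at regular density was 18.8.

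**Figure D4:**
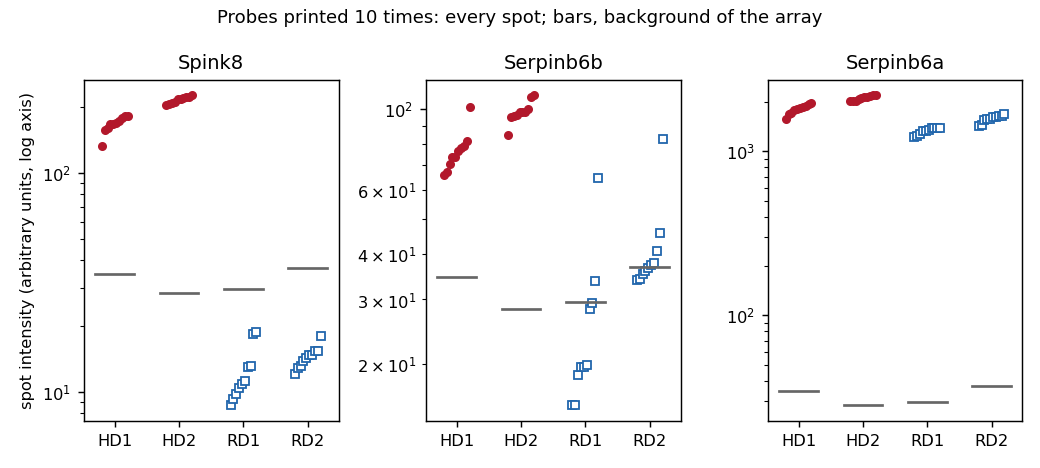
Intensity of each of the 10 spots (log axis, arbitrary units, sorted within an array) of Spink8, Serpinb6b and Serpinb6a, whose probes were printed 10 times, on the 2 high density (HD) and 2 regular density (RD) arrays, with a bar at the background of each array. Spots of Spink8 separate fully by density, and Serpinb6b has single regular density spots of 64.7 and 82.6 far above the rest of their array.

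The remaining Spink member probes stayed near or under background. Spink4, known from intestinal goblet cells, read 38.7 and 45.3 at high density, against 17.03 and 32.8 at regular density. It was above background on both high density arrays and on neither regular density array, a difference of at least 1.18-fold, and was too dim to test. Spink2, an acrosin inhibitor of the testis, read 27.1 and 38.9 against 34.4 and 43.7. Spink5, the skin inhibitor of kallikreins, and Spink5l2 (Spink14 in RefSeq) were under background on all arrays.

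Among genes that carry Kazal domains under other names, 18 were on the array and 11 were tested, and 6 were higher and 1 lower (background 12.8% and 17.7%), with a median change of 0.66. Fst, follistatin, which binds activin, read 299 and 344 at high density, against 64.1 and 81.0 at regular density (log2 change 2.05 ± 0.12 SE, adjusted p = 2.18e-04). The follistatin-like genes Fstl1 (1.05 ± 0.10, adjusted p = 0.00101) and Fstl3 (1.06 ± 0.12, adjusted p = 0.00185) and the matrix protein gene Smoc2 (0.80 ± 0.10, adjusted p = 0.00257) were also higher. Reck, a membrane-anchored inhibitor of metalloproteinases, was lower (-0.60 ± 0.12, adjusted p = 0.0143). Most of these proteins are known for binding growth factors or matrix and not for protease inhibition.

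Clades F, G and H had 1 probe each, all above background on every array. Serpinf1 encodes pigment epithelium-derived factor, a secreted serpin without protease inhibition that is known to restrain vessel growth. It read 15166 and 16387 at high density, against 17333 and 20052 at regular density (Entrez gene 287526, chromosome 10, 62714118 to 62714177). The groups did not overlap, and it was 1.27-fold lower at high density (log2 change -0.35 ± 0.10 SE, adjusted p = 0.0466). This call ended when any of the 4 arrays was left out (changes -0.42 to -0.27, adjusted p between 0.0587 and 0.289), and with the authors' normalized values the change was -0.11 (adjusted p = 0.437). Serping1, the C1 inhibitor of complement and contact activation, read 3261 and 4009 at high density, against 2781 and 4297 at regular density. Its groups overlapped and it was not called (-0.04 ± 0.13, adjusted p = 0.837).

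Serpinh1 encodes HSP47, the collagen chaperone of the endoplasmic reticulum. It read 35948 and 44099 at high density, against 29238 and 34640 at regular density (chromosome 1, 156667167 to 156667226). Both high density arrays were above both regular density arrays, with a change of 0.22 ± 0.10 that was not called (adjusted p = 0.130). Under quantile normalization the change was 0.55 and was called (adjusted p = 0.00517), and the authors' normalized values gave 0.55 too (adjusted p = 0.00818). Of 28 genes of collagen folding and cross-linking on the array, 26 were tested, 4 of them higher and 8 lower (background 12.8% and 17.7%), with a median change of -0.05. The cross-linking enzyme Lox (-0.88 ± 0.10, adjusted p = 0.00195), the lysyl hydroxylase Plod1 (-0.73 ± 0.09, adjusted p = 0.00331) and P4hb, a subunit of prolyl 4-hydroxylase (-0.60 ± 0.10, adjusted p = 0.00661), were lower at high density. Loxl2, a relative of Lox, was higher (0.68 ± 0.09, adjusted p = 0.00400).

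Serine protease inhibitors of other families had 10 of 23 genes tested, of which 1 was higher and 4 lower (background 12.8% and 17.7%), with a median change of -0.20. Besides A2m, Spint2, a Kunitz-type inhibitor of cell-surface proteases (-0.78 ± 0.11, adjusted p = 0.00387), Itih5, a hyaluronan-associated protein of the inter-alpha-trypsin inhibitor family (-1.07 ± 0.18, adjusted p = 0.00777), and Reck were lower. A2m read 556 and 681 at high density, against 1314 and 1563 at regular density.

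**Figure D5:**
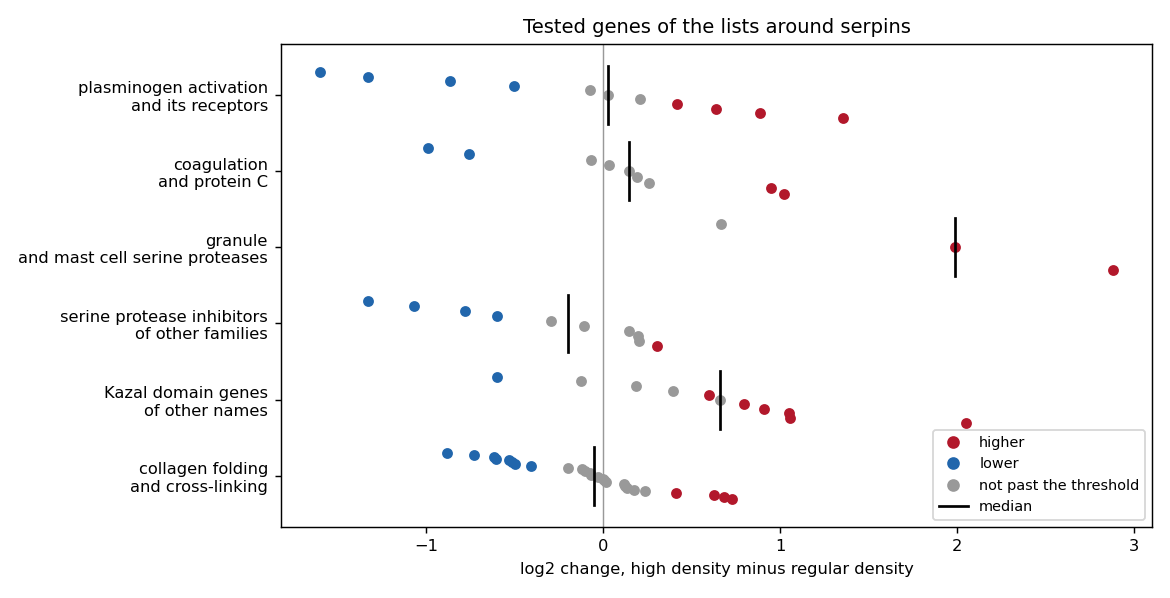
Log2 change (high minus regular density) of the tested genes in each of the 6 related lists, with 1 point a gene, coloured by the call at an adjusted p of 0.05, and a bar at each list's median. The plasminogen list spreads on both sides of 0 around a median of 0.03, and the list of other Kazal domain genes lies mostly above it, at a median of 0.66.

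No member probe of clades A and I was called. Outside the symbol rule, the clade A probe of Serpina1fl1 was called higher (log2 change 1.11, adjusted p = 0.00821 by limma). Those of Serpina3l and Serpina1fl2 were not called. Serpina1 (alpha-1-antitrypsin, the plasma inhibitor of neutrophil elastase) read 54.9 and 76.0 at high density, against 48.3 and 84.6 at regular density, with overlapping groups (-0.09 ± 0.25, adjusted p = 0.803). Serpina3n, an acute-phase serpin, read 92.2 and 71.9 against 53.3 and 60.2 (0.42 ± 0.25, adjusted p = 0.253). Serpina4 (kallistatin, an inhibitor of tissue kallikrein), the brightest clade A member, read 96.7 and 104 against 69.6 and 62.5 (0.50 ± 0.21, adjusted p = 0.124). In the last 2 the groups did not overlap. Serpini1 (neuroserpin, an inhibitor of tissue plasminogen activator) had 2 probes, which read 72.9 and 73.1 against 49.8 and 67.2 (0.23 ± 0.21, adjusted p = 0.429) and 84.9 and 129 against 88.0 and 97.5 (0.07 ± 0.18, adjusted p = 0.795). Both Serpina11 probes were too dim to test, with 18.1 and 20.7 against 10.9 and 24.3 on the probe under background everywhere, and 34.0 and 36.3 against 20.9 and 30.5 on the other.

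The dim members of clade B gave bounds or no order. Serpinb3a, a squamous cell carcinoma antigen gene, read 41.8 and 38.7 at high density, against 23.3 and 34.8 at regular density, above background on both high density arrays only, a difference of at least 1.13-fold. Serpinb3 read 33.1 and 58.3 against 17.2 and 28.1, and passed background on high density replicate 2 alone. The 2 probes of Serpinb8, whose human product inhibits furin, disagreed. On the first the scaled log2 difference was 1.01 and 1.39 between arrays of the same number, and on the second -0.90 and 0.14. Serpinb13 was under background on all arrays. The median negative control spot was 13.4 and 1.93 at high density and 10.5 and 1.99 at regular density, and the part of this floor in the differences between such dim values was not tested.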

How the data were processed

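RNA from 4 cultures was measured on 1-colour Agilent arrays. Spot intensities were extracted with Agilent Feature Extraction 11.0.1.1, per the submitters' processing notes, and the spot table carries a GeneSpring GX 12.0 header. The authors deposited spot intensity (linear, single spots, 1377 of 44254 on control features), raw intensity per probe (lowest value 5.00), and normalized log2 values, which equal the series matrix. How the normalized log2 values were made is not given in the sources used here; quantile normalization of the spot values gave the same change as these for Serpinh1 (0.55). The authors left 8894 probes out of their gene table.

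From the spot table, spots of a probe were taken to log2, averaged and scaled to each array's 75th percentile. Probes with a mean log2 above the median of all (5.62) were tested, 15183 in all, with limma 3.58.1 (R 4.3.3; lmFit, eBayes with trend, two-sided; 2 residual and 4.46 prior degrees of freedom). Printed raw intensities are the authors', which differ from the spot means (log2 means taken back to intensity) by at most 7.63% in the members. They change no background call. A probe under background on both arrays of a group has only a bound there, so its fold is "at least" the ratio of the other group's mean to the higher of background and its own signal. List genes with several probes are given by the brightest.

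Named with values were called members above background on both arrays of a group, the brightest of each clade, members above background in all arrays of one group and none of the other, and up to 4 genes per list with the smallest p. The members and lists were chosen with earlier results of these data known. A member that entered the counts and a marker gene are not reported here by name. Alternatives covered scaling, filters, background level, moderation, leaving out single arrays and a replicate block. With an array left out, 1 group held a single array with no spread of its own. The prior degrees of freedom of those fits ran from 5.29 to 23.2. Calls kept or lost there rest mostly on spread borrowed from other probes. Arrays with the same number differed alike (r = 0.37 between the replicate differences of the groups over 15183 probes), but no label ties the numbers, so no block was used. Control spots and unnamed probes were not used beyond this.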

Additional observations from a re-analysis of the deposited data

Results flagged for a closer look

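Serpin and Spink probes that carry another symbol or none in the authors' table, or have no row there, lie outside the name rule. Names from the RefSeq table, through a gene ID or accession or (for Serpina3l and Serpine3) from the authors' description, gave 28 such probes, of 26 genes. Of these, 23 probes of 22 genes were in the spot table but not in the authors' table, and all 23 were under background on every array. The Serpine3 probe was also under it on every array, and 4 probes were above background on all 4 arrays, which is why they are given here. Spink7, a Kazal-type inhibitor listed there as Ecg2, had a spot intensity of 738.6 and 631.5 at high density, against 746.8 and 675.0 at regular density, while its other probe was under background throughout (14.1 and 2.04 against 11.7 and 2.16). Serpina3l read 314.1 and 348.0 at high density, against 299.7 and 344.9 at regular density, and was not called (log2 change -0.07, adjusted p = 0.671 by limma). Serpina1fl1 read 217.6 and 204.4 at high density, against 93.4 and 88.7 at regular density, and was called higher (1.11, adjusted p = 0.00821). Serpina1fl2 read 127.9 and 99.1 at high density, against 65.7 and 63.5 at regular density, with groups apart but no call (0.70, adjusted p = 0.0846). With 2 arrays a group, no array could be tested for standing apart from its own group.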

How the results depend on the processing

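Spink8, Serpinb2 and Serpinb6b kept their direction in each setting that tested them and their call in each of these except the test without moderation, where their adjusted p lay between 0.05003 and 0.143. All 3 were too dim for the filter at the 75th percentile, which tested 9 members. Over all pairs of a tested member and an alternative, 257 kept their side of the threshold, 42 lost a call and 12 gained one, and no called value changed sign. Over all tested probes 4638 were called, against 2132 with no scaling, 7641 with the replicate block, 952 at 2-fold or more and between 2569 (without high density replicate 1) and 4363 (without regular density replicate 1) with an array left out. Members called higher numbered 5, against 3 with no scaling, 2 with a filter at the 75th percentile, 8 with the replicate block, 3 at 2-fold or more, and 3 to 4 with an array left out (3 without high density replicate 2 or regular density replicate 1). Members called lower numbered 4, against 2 with quantile normalization, the authors' normalized values, the series matrix values or no variance trend, 1 with no scaling, 1 at 2-fold or more, 6 with the replicate block, and 1 to 4 with an array left out (1 without high density replicate 1, 2 without high density replicate 2 or regular density replicate 1). Without moderation limma's own 2 residual degrees of freedom gave 0 calls in either direction, with 4321 of all tested probes and 6 higher and 2 lower members at an unadjusted p under 0.05. The replicate block added calls for Serpina4, Serpine2, Serpinh1, Serpinb1b and the second Serpinb1a probe; the arrays share only their numbers. Scaling moved the split of all calls from 1948 higher and 2690 lower to 1996 and 2045 (quantile), 1323 and 3565 (median) and 1506 and 626 (none), with a median change over all probes of -0.08, -0.07, -0.20 and 0.03. Above background on all 4 arrays were 16 members, 9 against the highest negative control spot, 18 against its mean plus 2 SD and 24 against the 95th percentile; the 2 replicate 2 arrays hold single negative control spots of 132 and 174. A floor of 32 took Spink8 to 2.52, Serpinb2 to -1.79 and Serpinb6b to 1.26. The cause of the other shifts was not tested. Signal near background limits the Spink and dim clade B values.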
